A study of Mus musculus with 30 samples.

Results

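Expression in the forebrain of untreated mice was read from 10 arrays, 1 per mouse, out of 30 in the study. The 10 were chosen by their label as untreated controls, and their 22626 probe sets, leaving out 64 manufacturer's control sets, were ranked by mean and by standard deviation (SD) over these arrays. A probe set is a group of short probes against 1 transcript, and its value is a log2 signal, so a difference of 1 is a factor of 2. The mice were male C57BL, a common inbred laboratory strain, with no engineered allele named in the labels, and they lived 1 to a cage with 12 h of light a day and had 2 weeks to settle in. The controls then drank plain water for 12 weeks, while the other groups, of 10 mice each, received clozapine at 12 mg/kg per day or haloperidol at 1.6 mg/kg per day in theirs. Age is given as 4 weeks, which cannot be the age at death after 12 weeks of drinking, and the hemisphere is given as right in most labels and as left in the tissue label. The cerebellum was cut away from the hemispheres. Each RNA sample came from a single mouse without pooling.

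The forebrain holds the cerebral cortex, hippocampus, striatum, thalamus and hypothalamus. Its neurons signal through synapses and are surrounded by oligodendrocytes, which wrap axons in myelin, astrocytes, which clear transmitter and supply metabolites, microglia, which are the resident immune cells, and blood vessels. The choroid plexus, a secretory epithelium in the ventricles, makes cerebrospinal fluid. A homogenate mixes all of these, so in such bulk RNA fewer cells of a type and less RNA per cell cannot be told apart. Probes differ in how strongly they bind, so the order of signals between genes is an order of array signal and not of transcript number.

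The 10 arrays were not alike. Control 1 stood apart by its control probe sets for Gapdh. The set at the 3′ end of this transcript exceeded that at its 5′ end by 6.25 on the log2 scale. On the other 9 arrays this difference was 0.05 to 0.70. For the control sets of beta-actin, Actb, the same difference was 1.94 on control 1. It was 0.70 to 2.01 on the other 9 arrays, with control 4 highest. By Actb, control 1 thus did not stand apart. Over the 12882 probe sets with a mean of at least 4, its correlation with another control lay between 0.823 and 0.905, while the lowest correlation between any of the others was 0.895. Controls 7 to 10 correlated with each other at 0.990 or above. No pair of arrays held identical values. The control set at the 3′ end of 18S ribosomal RNA lay between 10.11 and 13.83 on controls 2 to 6, between 3.44 and 5.86 on controls 7 to 10, and at 2.61 on control 1. The part of these differences in the results was not tested, and results that rest on control 1 are given with and without it.

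**Figure D1:**
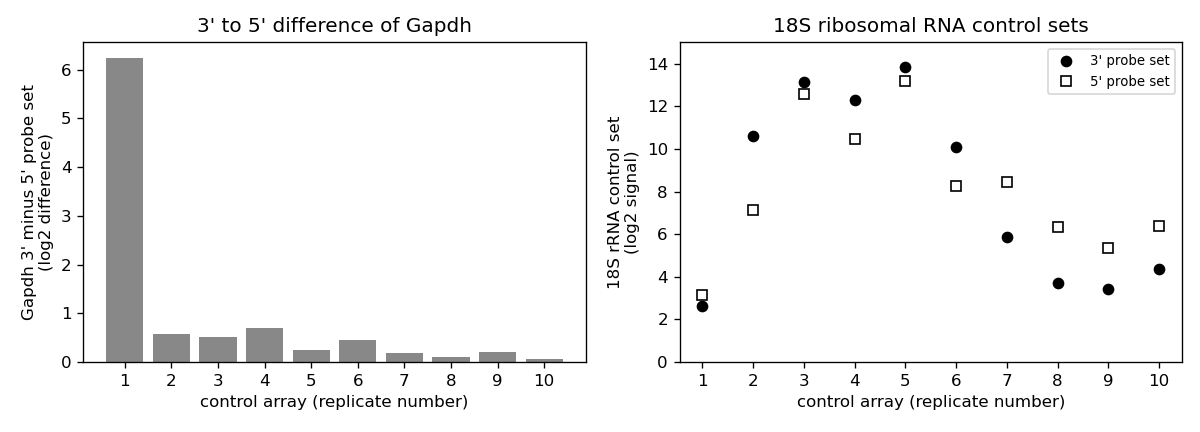
Left, log2 difference between the 3′ and 5′ control probe sets of Gapdh on each of the 10 control arrays; right, log2 signal of the 3′ and 5′ control sets of 18S ribosomal RNA. Control 1 has a Gapdh difference of 6.25 where no other array exceeds 0.70, and the 18S signal at the 3′ set is at least 10.11 on controls 2 to 6 and at most 5.86 on the other 5 arrays.

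The 5 named genes with the highest means were Mbp, Rps29, Ttr, ND5 and Actb. Mbp, which encodes myelin basic protein of oligodendrocytes, ranked first, with a lowest value of 13.85, a median of 14.18 and a highest of 14.50 over the 10 mice. Its mean was 14.17 ± 0.21 (SD, n = 10), and all 10 arrays lay within a factor of 2 of each other. Rps29, a protein of the small ribosomal subunit, followed at 13.84 ± 0.13. Ttr, which encodes the thyroid hormone carrier transthyretin and is made in the brain by the choroid plexus, came next, from 13.14 through a median of 13.98 to 14.08. Its 2 lowest arrays were controls 2 and 5, and its 3 probe sets had similar spreads, with SDs of 0.37, 0.42 and 0.44. ND5, a subunit of respiratory complex I encoded in mitochondrial DNA, was at 13.61 ± 0.21. Actb, cytoplasmic beta-actin, was the most variable of the 20 highest named genes, from 12.69 through 13.67 to 14.45, with control 5 highest and controls 1 and 4 lowest.

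The other 15 of the 20 highest named genes had means between 13.18 and 13.54. Cpe, carboxypeptidase E of neuropeptide processing, was at 13.54 ± 0.22. Ywhae, a 14-3-3 adaptor protein, was at 13.51 ± 0.24, and Gpm6a, a neuronal membrane glycoprotein, was at 13.50 ± 0.22. Eef1a1, which brings aminoacyl-tRNA to the ribosome, was at 13.46 ± 0.21, and Gnas, the alpha subunit of the stimulatory G protein, was at 13.43 ± 0.21. They were followed by Fth1, the ferritin heavy chain that stores iron, at 13.38 ± 0.16, Hspa8, the constitutive cytosolic Hsp70 chaperone, at 13.36 ± 0.11, and Tuba1a, an alpha-tubulin, at 13.32 ± 0.19. Norad, a long noncoding RNA, was at 13.29 ± 0.51, and its spread came from controls 2 and 3 at 12.08 and 12.65 while the other 8 lay between 13.43 and 13.68. Rpl13a of the large ribosomal subunit, the mitochondrial ADP/ATP carrier Slc25a4 and the growth-related protein Tpt1 had means of 13.28, 13.28 and 13.24. The sodium pump subunit Atp1b1 was at 13.20, the secreted chaperone clusterin, Clu, at 13.19 and Snap25, a membrane fusion protein of nerve terminals, at 13.18. From Rps29 down, each of the 20 differed from the next by less than the larger of their SDs, so neighbours in this order do not differ beyond their spread.

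**Figure D2:**
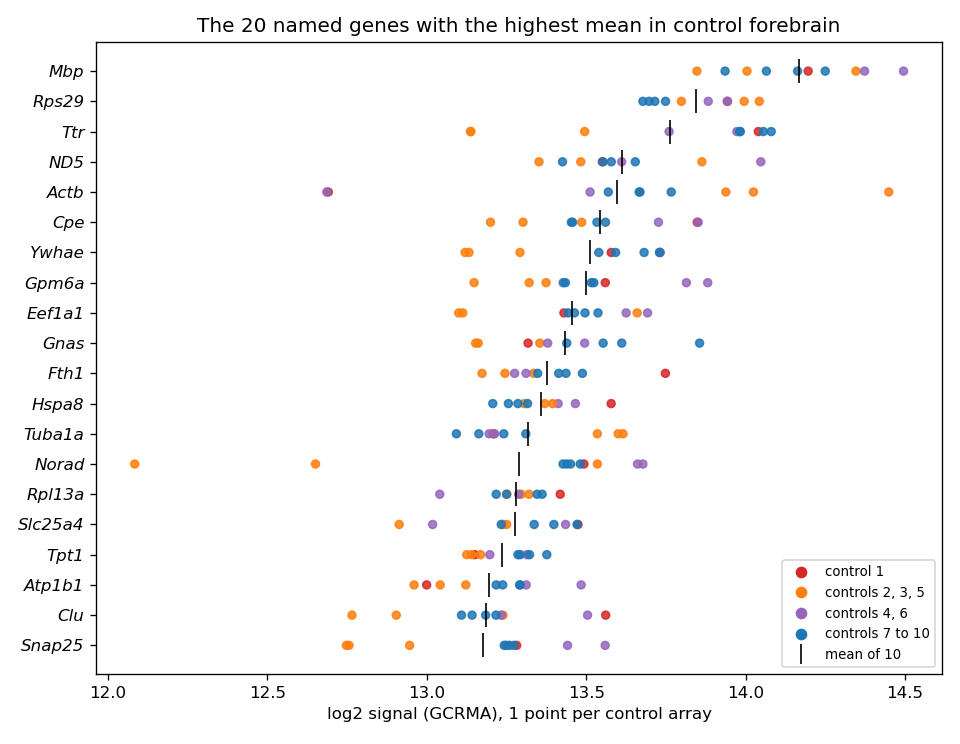
Log2 signal of the 20 named genes with the highest mean, 1 probe set per gene, with 1 point per control array coloured by array and a black bar at the mean. Most genes span less than 1 log2 unit over the 10 mice; Actb spans 12.69 to 14.45 and Norad has low points on controls 2 and 3.

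Of the 100 probe sets with the highest means, 72 carried a single gene symbol, for 56 different genes. Among these 72, 38 belonged to a list of highly expressed functions, or 52.8%, where 1.57% of all 20380 named probe sets did; the lists were written for abundant brain transcripts, so this is a description. Cytosolic ribosomal proteins gave 8 probe sets, 14-3-3 proteins 5, tubulins, actins and microtubule proteins 4, secreted glial proteins 4, and glycolysis, the respiratory chain with ATP synthase, translation elongation and cytosolic chaperones 3 each. The 100th probe set had a mean of 12.54 and the 101st 12.53, so the boundary falls in a continuum. A mean of at least 12 was reached by 236 probe sets, 1.04% of all, from 123 named genes.

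Genes of energy supply and protein synthesis mostly had a mean of at least 8. All 20 respiratory chain and ATP synthase genes had a mean of at least 8, from 9.53 to 13.17, with the cytochrome oxidase subunit Cox6a1 highest and the ATP synthase beta subunit Atp5b at 12.92 ± 0.13. All 12 glycolytic genes also did, led by the aldolases Aldoa at 13.02 ± 0.39 and Aldoc at 12.43 ± 0.25. Of 25 ribosomal protein genes 23 had a mean of at least 8, with a list median of 11.94 and a lowest mean of 3.37. All 6 measured 14-3-3 genes exceeded 12. In the synaptic vesicle list all 14 genes had a mean of at least 8; beside Snap25 they were led by Nsf, the ATPase that takes fusion complexes apart, at 12.14 ± 0.59, and synaptophysin, Syp, at 12.04 ± 0.50. These levels stand beside 20.9% of all probe sets with a mean of at least 8.

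All measured neuronal markers had a mean of at least 4, and the lists of neuron types reached lower than the pan-neuronal one. Of 12 pan-neuronal genes 11 had a mean of at least 8, with a median of 10.80, and so did 6 of 8 excitatory, 8 of 11 inhibitory and 8 of 11 striatal projection neuron genes, whose lowest means were 4.97, 5.74 and 4.43. After Snap25 the highest were Eno2, the neuronal enolase, at 12.20 ± 0.43, the deubiquitinase Uchl1 at 11.85 ± 0.31 and the neurofilament Nefl at 11.53 ± 0.19. Among the excitatory neuron genes Nrgn, a postsynaptic calmodulin-binding protein, was highest at 11.27 ± 0.51, and the vesicular glutamate transporter Slc17a6 was at 9.75 ± 0.49. Of the inhibitory neuron genes Gad1, which makes GABA, was highest at 12.27 ± 0.28, followed by the neuropeptides Cck at 10.93 ± 0.18, Npy at 9.88 ± 0.35 and Sst at 9.70 ± 0.19. Among the striatal genes enkephalin, Penk, was at 10.74 ± 0.36, the phosphodiesterase Pde1b at 10.08 ± 0.27 and tachykinin, Tac1, at 9.81 ± 0.40. The dopamine receptor Drd2, the target of haloperidol, ran from 4.71 through 6.22 to 7.04 in these untreated mice, with control 1 lowest.

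Oligodendrocyte and astrocyte markers all had a mean of at least 4, and most microglial markers did. All 8 measured oligodendrocyte genes had a mean of at least 4, with Cnp, a myelin-associated phosphodiesterase, at 12.56 ± 0.43, Mobp at 11.72 ± 0.30 and Mal at 10.66 ± 0.32 after Mbp. Of 5 measured genes of their precursors 4 reached 4, and the lowest mean was 3.46. The 2 with a mean of at least 8 were Olig1 at 9.43 ± 0.49 and Sox10 at 8.08 ± 0.20. All 12 astrocyte genes had a mean of at least 4, led by Aldoc, by glutamine synthetase, Glul, at 11.50 ± 0.34 and by the gap junction protein Gja1 at 11.11 ± 0.37. Microglial genes reached 4 in 10 of 12 cases, with the protease Ctss at 9.90 ± 0.43, the growth factor receptor Csf1r at 9.03 ± 0.21 and the fractalkine receptor Cx3cr1 at 8.35 ± 0.31. The complement gene C1qa was between 8.53 and 9.03 on 9 arrays and at 3.27 on control 1, so that its SD fell from 1.74 to 0.16 without that array. C1qb, which encodes another chain of the same complement protein and was looked up after this was seen, read 8.72, 7.88 and 8.38 on control 1 with its 3 probe sets, and 6.80 to 8.97 elsewhere.

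Vascular and barrier markers were partly near background. Of 11 endothelial genes 8 reached 4, led by the glucose transporter Slc2a1 at 9.10 ± 0.52 and the tight junction protein Cldn5 at 8.08 ± 0.55. The 3 that did not, the endothelial genes Pecam1 at 3.06, Cdh5 at 2.78 and Kdr at 1.84, are also markers of this cell type, and they were named after their values were seen. Of 8 pericyte and smooth muscle genes 4 reached 4, with Rgs5 at 9.74 ± 0.37 highest. In the choroid plexus list Ttr stood alone: 4 of 8 genes reached 4, and after Ttr the highest was the membrane protein klotho, Kl, from 2.59 on control 5 through a median of 4.99 to 6.47 on control 1. Among 10 meningeal genes 4 reached 4, where prostaglandin D synthase, Ptgds, which oligodendrocytes also make, was at 12.73 ± 0.14 and the matrix proteins Dcn and Col1a2 were at 6.72 ± 0.85 and 5.80 ± 0.21.

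Most measured blood cell markers had a mean below 4. Of 8 listed red cell genes only 4 were measured, and the globins Hbb-b1, Hbb-bt and Hbb-bs were not among them. None of these 4 red cell genes had a mean of 4: the membrane proteins Slc4a1 and Epb42 were at 3.70 and 3.49, the globin Hba-a1 at 2.53 and the haem enzyme Alas2 at 1.84. Of 11 neutrophil and lymphocyte genes 2 reached 4, immunoglobulin Ighm at 4.63 ± 0.31 and Ms4a1 at 4.25 ± 0.54.

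**Figure D3:**
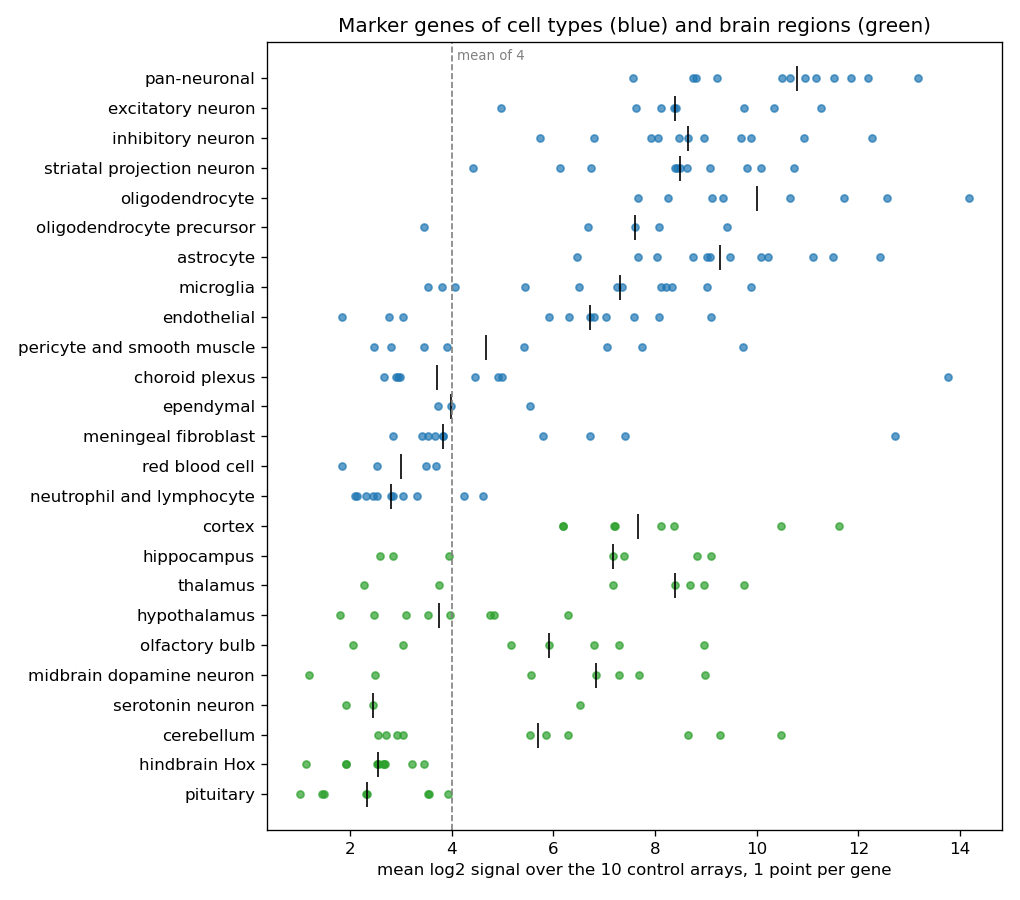
Mean log2 signal over the 10 control arrays of each measured marker gene, 1 point per gene at its highest probe set, for 15 cell type lists in blue and 10 region lists in green; the black bar is the list's median and the dashed line a mean of 4. Neuronal, oligodendrocyte and astrocyte genes lie above the line, Hox and pituitary genes below it, and the choroid plexus has Ttr far from its other members.

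Cortical markers were all above 4 and Hox genes all below it. All 8 measured cortical genes had a mean of at least 4, with the transcription factor Mef2c at 11.62 ± 0.27 and Lamp5 at 10.49 ± 0.25. Hippocampal genes reached 4 in 4 of 7 cases, led by Wfs1 at 9.10 ± 0.44, and thalamic genes in 5 of 7, where the kinase Prkcd was at 8.70 ± 0.39. Hypothalamic genes reached 4 in 3 of 8 cases: vasopressin, Avp, ran from 4.82 through 6.35 to 7.45, Trh from 3.15 through 4.87 to 6.36, and orexin, Hcrt, was at 4.76 ± 0.22. None of 11 Hox genes of the hindbrain and spinal cord did, with Hoxa3 highest at 3.46. Serotonin neuron genes reached 4 in 1 of 3 cases, with a highest mean of 6.54, and the serotonin transporter Slc6a4 of the raphe was at 1.93 ± 0.07. Midbrain dopamine neuron genes reached 4 in 5 of 7 cases, with a lowest mean of 1.20. Among them tyrosine hydroxylase, Th, and the dopamine transporter Slc6a3 were at 7.30 ± 0.50 and 5.56 ± 0.76. In the cerebellar list 6 of 10 genes reached 4, led by Calb1, Zic1 and Pvalb, which forebrain neurons also express. The 4 below were the Purkinje and granule cell genes Pcp2 at 3.04, Cbln3 at 2.71 and Gabra6 at 2.56 and the hindbrain factor En2 at 2.93, named after their values were seen.

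The sex label was checked in the same way. Xist, the RNA of the inactive X chromosome in females, ran from 2.77 through 2.96 to 3.52, below 4 on all 10 arrays. The Y-linked translation factor gene Eif2s3y ran from 5.91 through 6.86 to 8.38, and Uty and Kdm5d, also on the Y chromosome, were at 4.33 ± 0.26 and 3.53 ± 0.31.

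A large share of the array was near background. Of 22626 probe sets 9744, or 43.1%, had a mean below 4, and 8131, or 35.9%, were below 4 on every array. A further 14.3% were below 4 on some arrays and not on others. The 27 control sets against Bacillus transcripts, which are in mouse RNA only where they were added, had means from 1.96 to 3.30 so the threshold of 4 lies above all of these means; their highest single value was 4.04. By gene rather than by probe set, 4882 of 12393 named genes had no probe set at 4, or 39.4%. A probe set below 4 does not show that a transcript was missing: of 4956 genes with more than 1 probe set, 1752 had probe sets on both sides of 4, and the highest and lowest probe set of a gene differed by a median of 1.84.

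Genes of other organs lay in this low range. Of 66 measured genes from liver, muscle, heart, pancreas, testis, skin, lens, lung, kidney and gut, 62 had a mean below 4, or 93.9%, with a median of 2.53. None of 10 liver genes reached 4; apolipoprotein A1, Apoa1, was highest among them at 2.63 ± 0.13. The 4 exceptions were skin keratin Krt10 at 6.14 ± 0.78, skeletal actin Acta1 at 5.70 ± 0.70, the organic anion transporter Slc22a6 at 4.68 ± 0.29 and the sperm chromatin protein Tnp1 at 4.20 ± 0.54. The lowest of all named probe sets, for the homeobox gene Evx2 and for Tmem189, were both at 0.32 ± 0.03, at the floor of the scale, where levels have no order.

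**Figure D4:**
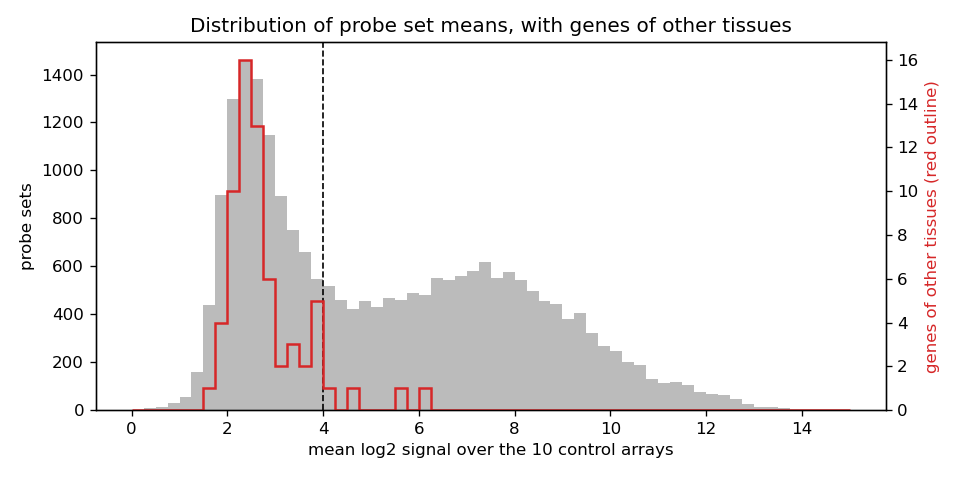
Number of probe sets by mean log2 signal over the 10 control arrays in grey, left axis, and number of genes of other organs in the red outline, right axis; the dashed line marks a mean of 4. The grey distribution has a low peak between 2 and 3 and a broad shoulder up to 14.17, and 62 of the 66 red genes lie left of the line.

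Promoter sequence was set beside these levels. Mammalian promoters fall into those rich in the CG dinucleotide, which usually stay unmethylated, and those poor in it, which often serve tissue-restricted genes. The 150 bases before the start of transcription are shown for 3 of the highest named genes with a listed promoter and for the 3 lowest genes of the other-organ lists, from RefSeq on GRCm38.p6, 5′ to 3′ on the gene's strand with CG in capitals.
Ywhae, chr11:75732737-75732886, plus strand: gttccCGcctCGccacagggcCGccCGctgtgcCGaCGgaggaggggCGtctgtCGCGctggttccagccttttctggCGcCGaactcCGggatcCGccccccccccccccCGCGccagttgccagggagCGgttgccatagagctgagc
Gpm6a, chr8:54779284-54779433, plus strand: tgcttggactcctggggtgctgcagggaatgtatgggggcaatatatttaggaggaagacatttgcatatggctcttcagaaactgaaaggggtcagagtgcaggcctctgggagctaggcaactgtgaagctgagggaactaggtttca
Eef1a1, chr9:78481725-78481874, minus strand: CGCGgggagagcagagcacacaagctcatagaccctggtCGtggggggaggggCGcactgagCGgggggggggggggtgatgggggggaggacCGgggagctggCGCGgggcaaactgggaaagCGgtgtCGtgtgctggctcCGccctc
Cryaa, chr17:31677781-31677930, plus strand: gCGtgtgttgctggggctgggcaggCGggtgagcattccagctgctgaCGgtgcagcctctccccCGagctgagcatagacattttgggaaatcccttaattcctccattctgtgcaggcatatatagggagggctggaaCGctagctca
Cpa1, chr6:30639068-30639217, plus strand: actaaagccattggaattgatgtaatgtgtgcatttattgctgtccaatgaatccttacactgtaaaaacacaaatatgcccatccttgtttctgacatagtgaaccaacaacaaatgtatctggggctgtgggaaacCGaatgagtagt
Myl2, chr5:122092574-122092723, plus strand: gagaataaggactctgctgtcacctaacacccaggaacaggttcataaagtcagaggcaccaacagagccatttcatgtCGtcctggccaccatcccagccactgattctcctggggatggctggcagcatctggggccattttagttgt
The 150 bases of Ywhae hold 16 CG dinucleotides and those of Eef1a1 hold 11, while those of Gpm6a, an abundant gene, hold 0. Cryaa, a lens crystallin, holds 5, and Cpa1, a pancreatic carboxypeptidase, and Myl2, a heart myosin light chain, hold 1 each. Gpm6a and Myl2 each have 2 listed promoters, of which the first is shown.

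CpG richness was then counted over 300 bases, 250 before and 50 after the start, as the observed number of CG divided by that given by the C and G content, with a ratio of at least 0.6 called CpG-rich. CG was searched as these 2 letters, which read the same on both strands, and 36.5% of the 27025 genes in the promoter table were CpG-rich. Of 2464 matched genes with a mean of at least 8, 2003 were CpG-rich, or 81.3%. The share was 69.8% at means from 4 to under 6, 78.5% from 6 to under 8, 81.9% from 8 to under 10, 78.9% from 10 to under 12 and 84.8% from 12 up, so it lay above the whole table in each of these classes. Between 80.5% and 82.4% of the named genes in each class had a promoter. Below a mean of 4 the check is void, because only 76.8% of genes had one.

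By function, 19 of 21 ribosomal protein genes and 15 of 16 respiratory chain and ATP synthase genes were CpG-rich, and 8 of 12 in both the synaptic vesicle and the glycolysis list. Among the other-organ genes 2 of 56 were, including 0 of 10 liver genes. Of the 100 matched genes with the largest SD without control 1, 69 were CpG-rich, beside 77.5% of all matched genes with a mean of at least 4. Sharing a CG-rich or CG-poor promoter is a description of the sequence and not a test of what sets the levels.

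Variation between untreated mice was modest for most genes and very large for a few probe sets. The median SD over the 12882 probe sets with a mean of at least 4 was 0.39, a factor of 1.31, and it was 0.33 without control 1. It fell with level, from 0.44 at means of 4 to under 6 through 0.36 at 8 to under 10 to 0.23 at 12 or more. Of these probe sets 911, or 7.07%, had an SD of at least 1, and 593, or 4.60%, without control 1. Because each array is 1 mouse, these SDs hold the mouse, the dissection, the RNA and the array together.

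The 10 named genes with the steadiest probe set at a mean of at least 8 had SDs from 0.05 to 0.09 there. Prpf8, the core protein of the spliceosome, had the lowest SD of the named genes, 0.05, with values from 9.31 through 9.43 to 9.49. The ribosomal proteins Rpl7 and Rpl6 had SDs of 0.07 and 0.08 at means of 8.89 and 11.31. The other 7 were Tsc22d4, Micos13 of the mitochondrial inner membrane, the chromatin remodeller Ep400, ankyrin Ank1, the nucleoside diphosphate kinase Nme1, the ubiquitin ligase Rnf5 and Sfr1, each with an SD between 0.08 and 0.09. A second set of Ank1 was not steady: it read 2.43 to 2.68 on controls 1 to 6 and 4.91 to 5.46 on controls 7 to 10.

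The most variable list was led by control 1. Among the 100 probe sets with the largest SD and a mean of at least 4, control 1 was the lowest array in 83, where it was the lowest in 18.9% of all such probe sets and the highest in 35.3%; for these 100 it was the highest in none. An Mbp probe set other than the one above had the largest SD of all, 3.10: it read 1.74 on control 1 and 10.62 to 11.92 on the other 9, and without control 1 its SD was 0.49. The 5 strongest Mbp sets did not share this drop and had SDs between 0.13 and 0.24. The weakest, with an SD of 2.18, read 3.83 on control 1, 2.64 on control 4 and 4.39 to 9.31 on the other 8. A set of complexin, Cplx1, which clamps vesicle fusion, read 2.35 on control 1 and 8.92 to 10.41 elsewhere. A set of Klc1, a kinesin light chain, read 2.82 and 9.06 to 10.83. The strongest sets of Cplx1 and Klc1 read 11.57 and 13.03 on control 1. For Ywhag, a 14-3-3 gene, the probe set with the SD of 2.68 had 2.61 on control 1, 5.29 to 8.10 on controls 2 to 6 and 10.34 to 10.75 on controls 7 to 10, whereas another of its sets was at 12.62 ± 0.26.

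Single probe sets of several neuronal genes followed the order of this variable Ywhag set. Camk2a, the alpha subunit of calcium/calmodulin-dependent kinase II, had a single named probe set, which read 2.96 on control 1, 5.52 to 8.20 on controls 2 to 6 and 10.57 to 11.32 on controls 7 to 10. Mapk8ip3, a scaffold of kinesin transport, read 0.79 on control 1 and 8.47 to 9.24 on controls 7 to 10. Kif5c, a kinesin heavy chain, read 1.62 and 8.20 to 8.77 on the same arrays, and the proton pump subunit Atp6v0a1 read 1.97 and 8.60 to 8.93. The strongest sets of Mapk8ip3, Kif5c and Atp6v0a1 did not share this drop. They read 9.03, 9.67 and 10.54 on control 1 and at most 9.81, 10.51 and 10.86 on controls 7 to 10. The NMDA receptor subunit Grin2b read 2.39 on control 1, 3.08 to 3.73 on controls 2 to 6 and 7.12 to 7.65 on controls 7 to 10, so the 2 blocks of arrays did not overlap. Controls 7 to 10 all lay above controls 1 to 6 in 56 of the 100 most variable probe sets and all below in 3, where 9.31% and 5.68% of all 12882 did so. The 3′ set of 18S ribosomal RNA read 10.11 to 13.83 on controls 2 to 6, 3.44 to 5.86 on controls 7 to 10 and 2.61 on control 1. Its 5′ set read 8.44 on control 7 and 7.16 and 8.27 on controls 2 and 6. The part of the 18S signal in this order was not tested. Over all probe sets 1199 lay above and 732 below; after quantile normalization the numbers were 1084 and 1122, so the excess above was not kept, and the number below was 1253 without control 6 and 1146 without control 9. Other named sets of this list were also lowest on control 1. They were those of Ddx6, Prkacb, Kcnab2, Napb, Hpca, Mapk8ip1, Cpd, Galnt2 and Arf3 and a second Norad set. Their SDs, from 2.29 to 2.47, fell to between 0.69 and 1.96 without control 1. Not all sets of these genes were low there, and the stronger Prkacb set had its highest value, 11.92, on control 1. Dpysl2 and Gnb1, also on the list, had SDs of 2.50 and 2.36 that did not fall without control 1, and Gnb1 read 10.98 on that array.

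The list changed in part without control 1. Of the 100 probe sets with the largest SD on the other 9 arrays, 51 were also among the 100 on all arrays. In 50 of them controls 2, 3 and 5 all lay above the other 6, beside 10.8% of all 12879 probe sets with a mean of at least 4 there, and in 9 controls 2 and 3 both lay below the others, beside 6.39%. Dpysl2, a microtubule-binding protein of axon growth and already on the first list, led: its single named probe set read 8.25, 8.26 and 8.13 on controls 2, 3 and 5 and 2.96 to 3.13 on the other 7, a gap with no value inside it. The strongest set of doublecortin, Dcx, a microtubule protein of migrating neurons, read 11.23, 10.90 and 11.11 on the same 3 arrays and 5.87 to 8.77 elsewhere. Probe sets of Ldah, of lipid droplets, Rap2b, a small GTPase, Gmcl1, Fhdc1, Scaf11 and Zfp30 were high on these 3 arrays too. Not all sets of these genes shared this, and the strongest Ldah set had its lowest value, 5.99, on control 5.

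Another group of probe sets was low on controls 2 and 3 but not on control 5. Gnb1, a G protein beta subunit, read 4.73 and 5.98 on controls 2 and 3, 8.58 to 12.01 on the other 8, with 11.59 on control 5. The weaker Actb probe set read 5.07 and 6.61 on controls 2 and 3 and 12.10 on control 5, while the stronger Actb set read 13.94, 14.02 and 14.45 there. Inpp4a, an inositol phosphatase, read 3.47 and 4.80 on controls 2 and 3, the deubiquitinase Otub1 3.33 and 3.49, and the adaptor protein Ap2a2 4.64 and 5.38, against lowest values elsewhere of 7.01, 4.65 and 8.32. Ppargc1a, a regulator of mitochondrial genes, instead had 1 low array, control 4, at 2.78.

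Probe sets of the same gene often disagreed. Of the 100 most variable sets, 74 had another set of the same gene with a mean of at least 4; the median SD was 2.03 for the 74 and 0.50 for the other sets of those genes, and for 43 of the 74 no other set had an SD of at least 1. Without control 1 the figures were 72, 1.75, 0.53 and 42. A second Gnb1 set, for example, was at 7.48 ± 0.31, and a second Kif5c set was at 10.10 ± 1.06. Such SDs belong to a probe set and cannot be read as those of the gene's transcript.

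Other differences were shared by all probe sets of a gene or by several genes of a list. Gh, growth hormone of the pituitary, was high on control 7 alone: its 4 probe sets read 7.42 to 9.19 there, and the set with the highest mean read 9.17 there and 3.05 to 4.05 on the other 9 arrays. Prolactin, Prl, also of the pituitary, was highest on the same array at 4.46, beside 3.26 to 3.82. The other 6 measured pituitary genes had means from 1.02 to 3.53. Gh exceeded 5 on 1 of 10 clozapine and 1 of 10 haloperidol arrays as well, with highest values of 6.63 and 5.85.

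Some olfactory bulb genes were lowest on controls 1 and 8. Cdhr1, a cadherin-like protein of olfactory bulb projection neurons, read 4.89 on control 1 and 3.15 on control 8, and 6.31 to 8.19 on the other 8. Doc2g, a C2 domain protein, read 3.94 and 4.54 on the same arrays and 5.67 to 7.20 elsewhere, so both genes put the same 2 arrays lowest. Both genes were chosen for this after their values were seen. Control 1 was the lowest array in 18.9% of all probe sets with a mean of at least 4. The share with controls 1 and 8 as the 2 lowest was not counted. Of the 5 list genes with a mean of at least 4, Th also had controls 1 and 8 lowest, at 6.90 and 6.29, while Calb2 had controls 1 and 5 lowest and Eomes controls 1 and 7. Cdhr1 was below 5 on 2 of 10 clozapine and 0 of 10 haloperidol arrays, and Doc2g on 2 and 1.

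Genes that respond to activity, time of day or infection were also read by mouse. Of 19 measured immediate early genes, which neurons switch on within minutes of activity, 14 had a mean of at least 4, with a median SD among them of 0.67, and of 0.53 without control 1, beside 0.39 and 0.33 for all probe sets. Egr1 and Fos were high and steady, from 10.62 through 11.19 to 11.49 and from 9.59 through 9.77 to 10.74. Egr2 ran from 4.38 on control 7 through 6.24 to 7.14 on control 3, and its second probe set ran in a similar way, from 3.30 on control 7 to 6.70 on control 3. Junb ran from 4.17 on control 1 through 7.48 to 9.84 on control 5. Of 15 circadian clock genes with a mean of at least 4, 0 had an SD of at least 1, beside 7.07% of all probe sets, and their median SD was 0.45, beside 0.39; Nr1d2, a repressor of the clock loop, was at 10.41 ± 0.31, and Per1 at 7.59 ± 0.79. The hour of death is not given in the labels. The interferon-induced gene Ifit3 read 4.82 and 5.29 on controls 7 and 8 and 6.40 to 7.47 elsewhere. The astrocyte filament gene Gfap read 10.31 on control 1 and 8.34 to 8.74 elsewhere.

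**Figure D5:**
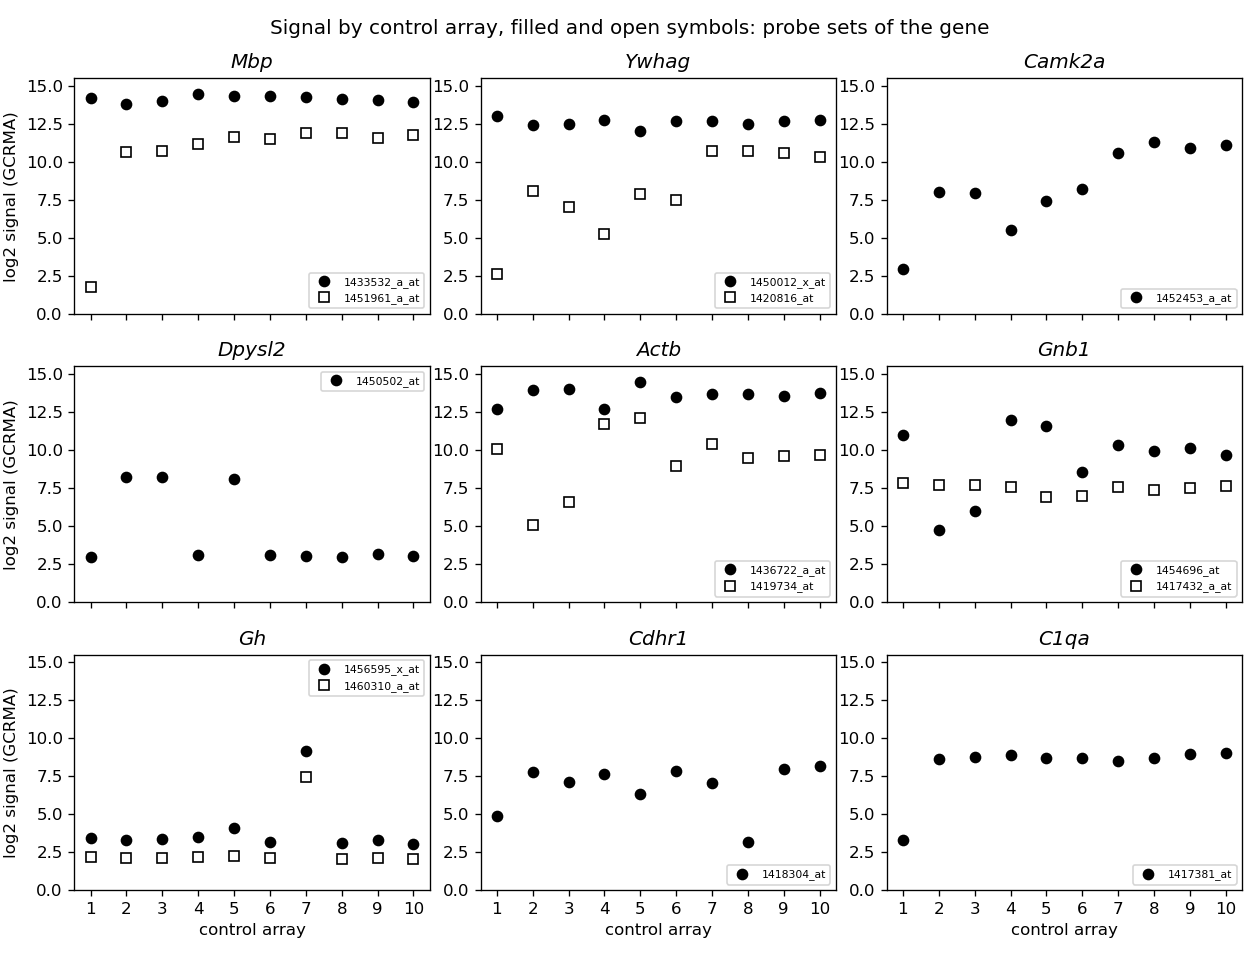
Log2 signal on each of the 10 control arrays for 9 genes, with filled and open symbols for different probe sets of the same gene. Mbp, Ywhag and C1qa have their lowest point on control 1, Dpysl2 is high on controls 2, 3 and 5, Gh is high on control 7 in both sets shown, and Cdhr1 is lowest on control 8.

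The treated groups served as a check of the ranks in other mice. Of the 100 most variable probe sets in controls, 78 were in the top 10% by SD among the 10 clozapine arrays and 98 among the 10 haloperidol arrays. Without control 1 the counts were 94 and 100. The median SDs over all probe sets with a control mean of at least 4 were 0.37 and 0.50 in these groups.

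Levels in the drug groups were compared with the controls in a limma fit over all 30 arrays and 12944 probe sets with a mean of at least 4. With Benjamini-Hochberg adjustment no probe set was called for either drug, 0% of those tested, so 0 of 353 list genes tested were called. At an unadjusted p under 0.05 there were 563 for clozapine and 298 for haloperidol. Both counts lay below a share of 0.05 of the 12944, which the cut alone gives when no probe set differs. For the 20 highest named genes the difference ranged from -0.26 for Slc25a4 to 0.12 for Gpm6a with clozapine and from -0.27 for Norad to 0.30 for Actb with haloperidol, and the 95% confidence interval had a median half-width of 0.22. For the 20 most variable genes that half-width was 1.96, so differences of several-fold could not be told from 0 there. For the list genes as a whole it was 0.36, a factor of 1.28. A missed threshold does not show that the groups were alike.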

How the data were processed

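The authors deposited log2 values, 1 for each probe set on each Affymetrix MOE430A array. The submitters' processing notes name GCRMA, a method that models background from probe sequence, normalizes across arrays and combines the probes of a set, and that compresses differences near background. Version, scanner and scan dates: not given in the sources used here. Precision is limited by the number of mice, 10 a group.

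Groups came from the sample titles. Of 22690 probe sets 64 controls were left out. Symbols came from the platform annotation, updated through Entrez identifiers to RefSeq: 20380 probe sets had 1 symbol, 691 had several and 1555 were not listed; only those with 1 are named. Promoters were matched by symbol for 9887 of 12393 genes, or 79.8%. Means, SDs, medians and counts were computed with Python 3 (pandas and numpy); a mean below 4 was called near background. A list gene is represented by its probe set with the highest control mean. Drug groups were compared with limma 3.58.1 in R 4.3.3, in 1 fit of 30 arrays, two-sided, at an adjusted p under 0.05. Its ranking and calls were tested on simulated data. The data simulated for limma were drawn independently for each probe set and array. They lack the differences between arrays described above, so that test does not cover them. The mice are separate animals with 1 array each. The p-values therefore measure a spread that holds the mouse, the dissection, the RNA and the array together.

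Named genes followed a rule, 1 probe set per gene with a single symbol: the 20 highest means; the 15 largest SDs, the 20 largest at a mean of at least 4, and the 20 largest there without control 1; the 10 smallest SDs at a mean of at least 8; the 5 lowest means; per list the 4 highest means and the 2 largest SDs; and Xist with the Y-linked genes. Gh, Prl, Cdhr1, Doc2g, Ifit3, C1qa, C1qb, Gfap and Egr2 are given by array because of values seen. The members and lists were chosen with earlier results of these data known. Alternatives were leaving out each control array, quantile normalization, medians and other thresholds; those on promoters and the list counts without control 1 were chosen after seeing the data.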

Additional observations from a re-analysis of the deposited data

Results flagged for a closer look

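Of 163 probe sets whose values are given above, 38 had 1 control array whose gap to the next value, as a share of the range of the 10 arrays, exceeded Dixon's critical value. Chance alone flags about 1 in 20 groups, a rate that does not apply here. Many of the 163 were named for a large SD or for values seen on these same arrays. Their share, 23.3%, is therefore a description. Over all probe sets with a mean of at least 4, 19.5% had such a gap, and control 1 was the extreme array in 55.2% of those. The causes were not tested.

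Control 1 was the extreme in 16 of the 38. It was lowest for the second Mbp set at 1.74, Cplx1 at 2.35, C1qa at 3.27, Klc1 at 2.82, Mapk8ip1 at 2.56, Mapk8ip3 at 0.79, Napb at 2.75, Prkacb at 2.61, Hpca at 2.97, Kcnab2 at 2.48 and the second Norad set at 3.26. It was also lowest, by less than 0.2, for the steady genes Micos13 at 9.45 and Rnf5 at 8.96. It was highest for Gfap at 10.31 and for the Y-linked genes Eif2s3y at 8.38 and Kdm5d at 4.27.

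Control 5 was the extreme in 10. It was lowest for the thalamic gene Slc17a6 at 8.48, the neuropeptide Tac1 at 8.87, Kl at 2.59 and Krt10 at 4.23. It was highest for the weak genes Tnp1 at 5.51, Ms4a1 at 5.57, Epb42 at 4.56, En2 at 3.61, Cbln3 at 3.15 and Xist at 3.52. Control 5 also had the highest array mean of the Hox, the red cell, and the neutrophil and lymphocyte lists. The same held for every other-organ list except pancreas and skin, where control 1 was highest. For the liver genes its mean was 2.63, beside 2.18 to 2.38 on the other arrays. High values on control 5 were thus not particular to these weak genes.

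Control 7 was the extreme for the pituitary genes Gh and Prl, with the 4 Gh probe sets at 9.17, 9.19, 7.84 and 7.42 and Prl at 4.46. Control 4 was lowest for Ppargc1a at 2.78 and highest for Hcrt at 5.28 and Rpl6 at 11.48. Control 3 was highest for Alas2 at 3.28 and lowest for Atp5b at 12.64, control 6 was lowest for Rpl13a at 13.04, and control 9 was highest for Kdr at 2.44.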

How the results depend on the processing

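The count of probe sets with an SD of at least 1 was 911, 579 with the scaled median absolute deviation and 4143 at an SD of 0.5; with each control left out in turn it lay between 593, without control 1, and 990. Probe sets lower on controls 7 to 10 than on 1 to 6 without overlap numbered 732, 1122 after quantile normalization (1199 and 1084 for those higher) and, with an array left out, 779 to 1253, the most without control 6; without control 9 they numbered 1146. Fewer arrays leave less room for overlap. Counted by gene, 4882 were near background in place of 9744 probe sets. The share of CpG-rich promoters at a mean of at least 8 was 81.3%, 74.8% over every promoter listed and 61.4% at a ratio of 0.75. Under each other setting tried, the results named here, the array median, the sets at 12 or more, the function list members and the SD in treated groups stayed within 1.5 times or the spread between arrays. With the replicate number as a replicate block 0 probe sets were called for either drug, as in every other fit, while 846 and 540 had an unadjusted p under 0.05. The deviations of same-numbered arrays from their group means correlated at over 0.1, a low cut, in 5 of 10 clozapine and 5 of 10 haloperidol pairs with controls. They did so in 7 of 10 pairs of the 2 drugs. Correlations with controls ran from -0.50 to 0.70 for clozapine and from -0.31 to 0.80 for haloperidol. Differently numbered arrays were not compared, so this cannot decide whether the numbers pair the mice. Of 318 single levels tried, none moved by over 1 SD when an array was left out, but 123 of 177 did with the mean over all probe sets of the gene. Among 318 single SDs 169 moved with the median absolute deviation, 63 without control 1, 53 without control 5 and 53 after quantile normalization. Of the gene lists, 1 changed its count at a mean of 4 without control 1, the ependymal list, from 1 to 2. Signals near background and probe sets that disagree set the limits of these ranks.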
